A study of Mus musculus with 31 samples.

Results

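The splicing change of the transgenic R6/2 mouse was set against that of the homozygous Q175 knock-in mouse, event by event, in the cortex. Members were the 1696 splicing events listed in both the R6/2 and the Q175 file sets, of 1922 events listed in any set of the series. For each event the change in R6/2 (HD minus WT) minus the change in Q175 homozygotes (HOMO minus WT) was taken on the log2 ratio of short to long junction counts, and this difference of changes is called the interaction. Short counts are reads of the junction formed when an alternative exon is skipped and long counts are reads of a junction with the exon in place, for the 1632 cassette exons. For the other members (31 alternative 3′ sites, 20 alternative 5′ sites and 13 pairs of mutually exclusive exons) short and long are the isoforms so named in the files, and "exclusion" there means the share of the short one. Thus an interaction above 0 means that exclusion rose more, or fell less, in R6/2. The R6/2 set listed 47 events that the Q175 set lacks and the Q175 set 143 that the R6/2 set lacks, and these could not be compared.

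RASL-seq, which counts ligated pairs of probes annealed across known splice junctions, had been run on untreated cortex from 1 hemisphere, with 1 library per mouse. Of the 31 mice of the series, 14 enter here. The R6/2 set holds 3 HD mice (numbers 860, 868 and 869) and 3 WT mice (numbers 3, 4 and 6) of the line B6CBA-Tg(HDexon1)62Gpb/3J, and the methods give their age as 3 months. The Q175 set holds 3 homozygous mice (1, 2 and 3) with 175 glutamines on both alleles of the line B6J.129S1-Htttm1Mfc/190ChdiJ and 5 WT mice (6 to 10) with 7 glutamines on each, and the methods give an age of 18 months. In the labels the HOMO mice bear the mouse numbers 8179, 3857 and 3880, and the WT mice 544, 811, 861, 3878 and 3903. All HOMO mice but only WT mice 9 and 10 thus have mouse numbers over 1000, so this series of numbers is partly confounded with genotype. R6/2 carries a short fragment of human huntingtin, exon 1, as an added gene beside its normal mouse alleles, whereas the knock-in mouse carries the expansion in its own full-length gene and, as a homozygote, has no normal allele. Line, strain background, age and file set all change together between the models and cannot be told apart. The labels name separate mice, and values below follow the order of numbers given here.

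Huntington's disease (HD) is caused by an expanded run of glutamine codons in huntingtin. Cassette exons are kept or skipped in a regulated way, and in neurons such exons alter receptors, adhesion proteins, scaffolds and the splicing factors themselves. Some alternative exons hold no stop codon and change the protein, while others bring in an early stop that marks the transcript for nonsense-mediated decay. In a block of tissue, fewer cells of a type and less RNA per cell cannot be told apart, and the same holds for a change of exon use within a cell type and a change in the mix of cells.

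Over the shared events a mouse of the R6/2 set had 2152484 to 4304534 counts and a mouse of the Q175 set 3629891 to 5139683, and no shared junction had fewer than 4 counts. Mice of a group differed by more than counting noise in all 19 pairs, with a chi-square per degree of freedom of 4.32 to 18.8. Every marker gene that the panel measured had counts in all mice. Neuronal markers (6 events of Grin1, Mapt, Mtap2 and Syt1) summed to 36270 to 40543 CPM (counts scaled to the library total) in R6/2 WT and 29000 to 34016 in R6/2 HD, against 33628 to 41744 and 35202 to 39746 in the Q175 set. The astrocyte marker Ndrg2 (1 event) ran from 17314 to 18252 in R6/2 WT and 8896 to 10014 in HD, and from 13588 to 17035 in Q175 WT and 9903 to 11927 in HOMO. Mag and Mbp, the 2 oligodendrocyte markers measured, summed to 10969 to 13390, 9070 to 13165, 7851 to 9840 and 5992 to 10233 in the same order. Pecam1, the vascular marker, ran from 46.2 to 81.3 and 33.7 to 58.1 in R6/2 WT and HD and from 105 to 120 and 88.8 to 118 in Q175 WT and HOMO, so that the sets did not overlap, and no microglial marker was on the panel. The part of these levels in the results was not tested.

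Events that differed between the models mostly had the larger change in R6/2. Across the 1696 events 197 passed the interaction test at an adjusted p under 0.05 (11.6%), in 188 genes, and 432 had an unadjusted p under 0.05. Of the 197, 159 lay above 0 (9.38% of all events) and 38 below 0 (2.24%). With each mouse centred on its median event, 191 passed, 129 of them above 0, and 167 were shared with the uncentred test. The median interaction of all events was 0.12, and 0.03 after centring. An interaction of at least 1 log2 unit in size was found for 118 of the events that passed, 94 of them above 0.

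The R6/2 change was the larger in size in 192 of the 197 events, with exclusion higher in R6/2 HD mice in 154 and lower in 38. The median size of the R6/2 change in these 197 was 1.30 on the log2 scale and that of the Q175 change 0.30, against 0.43 and 0.22 over all events. In 160 events the R6/2 change passed its own test and the Q175 change did not, in 32 both passed, in 1 only the Q175 change passed, and in 4 neither did. The 32 events that passed in both models moved the same way, 28 toward more exclusion and 4 toward less. Over all 77 events that passed in both contrasts, whether or not the interaction passed, all 77 moved the same way, and the R6/2 change was the larger in 65, with a median ratio to the Q175 change of 1.78 (range 0.669 to 4.03). In 53 of the 197 the changes had opposite signs, but in only 5 of these was each change past an unadjusted p of 0.05, and in none past the adjusted threshold. No R6/2 HD mouse lay within the range of the WT mice, or the reverse, in 189 of the 197 (41.9% of all events), and Q175 HOMO and WT mice did not overlap in 65 (14.2% of all events).

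In the fit of all 14 mice the R6/2 change passed in 567 events (33.4%), 407 toward more exclusion (24.0%) and 160 toward less (9.43%). The Q175 HOMO change passed in 85 (5.01%), 72 toward more exclusion (4.25%) and 13 toward less (0.767%). In fits of each set by itself 499 passed in R6/2 and 136 in Q175 HOMO. After centring, in the fit of all mice, the counts were 580 with 330 toward more exclusion and 55 with 41. Of the 85 events that passed in Q175 HOMO, 81 had an R6/2 change of the same sign, 65 a larger one of the same sign, 77 passed in R6/2 and 33 passed the interaction. Of the 567 that passed in R6/2, 478 had a Q175 change of the same sign, 77 passed in Q175 and 192 passed the interaction. The Q175 count of 85 rested on single mice and on the model. It was 31 without HOMO mouse 1, 56 without HOMO mouse 2, 40 without HOMO mouse 3 and 47 without WT mouse 9. With the series of mouse numbers, under or over 1000, as a term it was 43, and without the trend of variance on counts 46. The interaction count ranged from 162 to 201 when each mouse was left out.

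**Figure D1:**
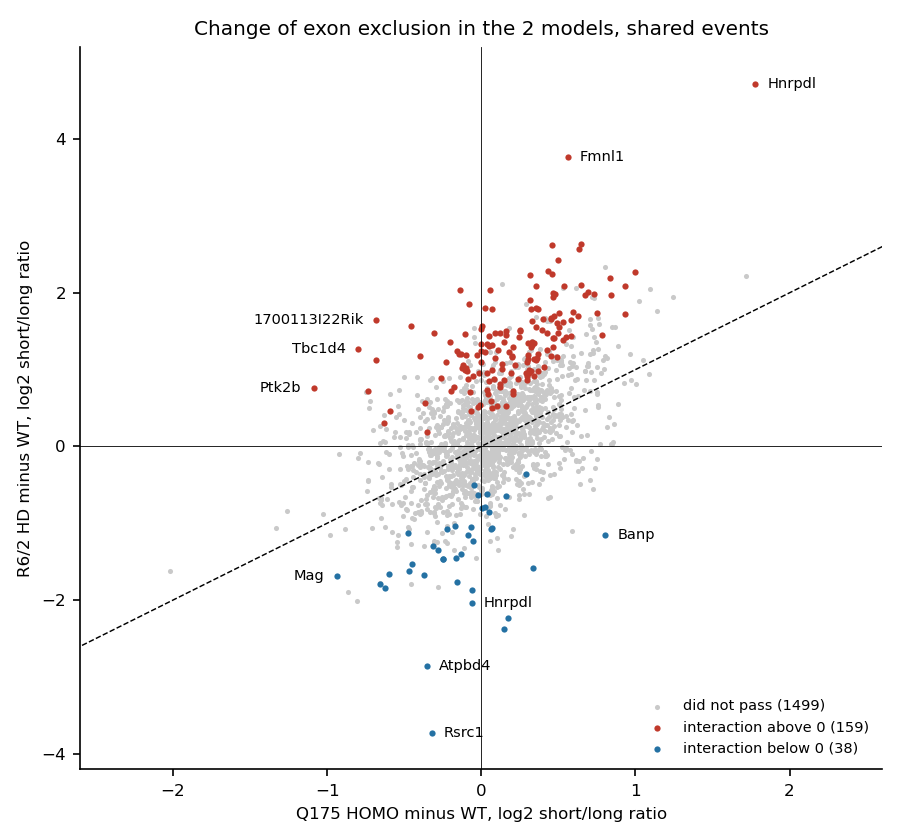
Each point is 1 of 1696 shared events, with the Q175 HOMO change on the horizontal axis and the R6/2 change on the vertical axis, both as differences of the log2 short/long ratio between mutant and WT mice; the dashed line marks equal changes. The 159 red events lie above that line and the 38 blue events below it, and 192 of these 197 are farther from 0 on the vertical axis than on the horizontal one.

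Averaged over the shared events, exclusion was 45.6, 45.6 and 45.5% in the R6/2 WT mice and 47.1, 47.6 and 47.3% in the HD mice. In the Q175 set it was 45.4, 45.3, 46.0, 45.3 and 45.3% in WT and 46.2, 45.9 and 46.3% in HOMO mice. The R6/2 groups were apart, while WT mouse 8 of the Q175 set lay above 1 of the 3 HOMO mice. Mean exclusion rose by 1.81 percentage points in R6/2 (exact permutation p = 0.1, the smallest that 3 against 3 mice allow) and by 0.629 in Q175 HOMO (exact permutation p = 0.0357). The difference of 1.18 points did not pass a two-sided exact permutation test that shuffled group labels within each set (p = 0.135, 1120 arrangements). The Q175 change lost its call without any of WT mice 6, 7, 9 and 10 or HOMO mice 1 and 3, at differences of 0.557 to 0.615 points and exact permutation p of 0.0857 or 0.0952.

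The exons of 8 events are shown with their sequence, because the results turn on them and each lies in coding sequence. They were found by matching the gene and the length of the skipped interval to GENCODE M21 on GRCm38, where 1331 of the 1632 shared cassette events had a single annotated exon. Capitals mark the exon, lower case the 12 intron bases on each side, and every sequence reads 5′ to 3′ on the strand of the gene. The Hnrpdl exon (171 nt) is at chr5:100036481-100036651 (minus strand), that of Rsrc1 (174 nt) at chr3:67082536-67082709 (plus) and that of Mlx (90 nt) at chr11:101088236-101088325 (plus). The Mtap7d2 exon (99 nt) is at chrX:159460267-159460365 (plus), that of Grin1 (63 nt) at chr2:25311343-25311405 (minus) and that of Tbc1d4 (24 nt) at chr14:101471428-101471451 (minus). Those of Nrxn3 are at chr12:90199147-90199236 (90 nt, plus) and chr12:89517906-89517932 (27 nt, plus).
Hnrpdl: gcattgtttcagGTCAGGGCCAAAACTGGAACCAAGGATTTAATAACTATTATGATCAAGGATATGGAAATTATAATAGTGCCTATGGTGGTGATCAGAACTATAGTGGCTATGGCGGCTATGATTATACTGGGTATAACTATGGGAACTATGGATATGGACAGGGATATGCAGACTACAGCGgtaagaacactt
Rsrc1: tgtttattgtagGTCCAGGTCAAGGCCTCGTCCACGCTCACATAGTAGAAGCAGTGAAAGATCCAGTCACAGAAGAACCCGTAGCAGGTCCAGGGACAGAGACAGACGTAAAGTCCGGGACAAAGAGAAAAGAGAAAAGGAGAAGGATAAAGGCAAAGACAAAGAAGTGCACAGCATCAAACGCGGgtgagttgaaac
Mlx: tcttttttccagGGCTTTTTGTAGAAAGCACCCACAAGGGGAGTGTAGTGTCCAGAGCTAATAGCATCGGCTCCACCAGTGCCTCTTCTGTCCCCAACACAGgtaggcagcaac
Mtap7d2: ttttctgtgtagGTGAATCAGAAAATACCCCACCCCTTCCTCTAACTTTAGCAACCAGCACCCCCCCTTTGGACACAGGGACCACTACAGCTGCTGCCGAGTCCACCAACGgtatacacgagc
Grin1: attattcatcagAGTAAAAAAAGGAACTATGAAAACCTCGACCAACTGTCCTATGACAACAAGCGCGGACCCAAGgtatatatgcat
Tbc1d4: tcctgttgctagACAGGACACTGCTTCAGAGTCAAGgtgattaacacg
Nrxn3 (90 nt): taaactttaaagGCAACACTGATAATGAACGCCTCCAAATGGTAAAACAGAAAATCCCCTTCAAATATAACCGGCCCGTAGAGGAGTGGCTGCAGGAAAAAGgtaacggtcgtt
Nrxn3 (27 nt): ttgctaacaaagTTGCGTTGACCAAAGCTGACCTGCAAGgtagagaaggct

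Splicing and RNA-binding factors included the events with the smallest adjusted p of all, in Hnrpdl and Celf4. Hnrpdl, now Hnrnpdl, encodes an RNA-binding protein of the hnRNP family, and both of its events passed, in opposite directions. Exclusion of the 171 nt exon printed above was 0.948, 1.39 and 0.861% in R6/2 WT mice and 23.9, 19.4 and 22.5% in HD mice. In the Q175 set it was 1.47, 1.56, 1.75, 1.38 and 1.22% in WT mice and 4.91, 5.02 and 4.66% in HOMO mice. No mutant mouse overlapped the WT mice of its set, and every R6/2 HD mouse lay above every HOMO mouse. The log2 ratio rose by 4.72 in R6/2 and 1.78 in Q175 HOMO, an interaction of 2.95 ± 0.22 (SE, limma adjusted p = 6.46e-10). WT mice of the 2 sets also differed, by -0.49 (limma adjusted p = 0.0379). The summed counts of this event changed by -0.38 in R6/2 and 0.05 in Q175 (log2, scaled to the mouse's total over the shared events, with an interaction of -0.43 and adjusted p = 0.0216).

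The other Hnrpdl exon (105 nt) is annotated only in transcripts subject to nonsense-mediated decay. Its exclusion was 88.4, 88.5 and 88.3% in R6/2 WT and 59.3, 71.0 and 64.1% in HD mice, and 88.6, 90.0, 85.2, 86.7 and 85.8% against 88.2, 87.0 and 85.3% in the Q175 set. The exon was thus kept more often in all R6/2 HD mice, while HOMO mice lay within the range of their WT mice. The R6/2 change was -2.04 and the Q175 change -0.06 (adjusted p = 0.872), with an interaction of -1.98 ± 0.21 (adjusted p = 4.71e-07). Here too the summed counts differed between the models (interaction -0.58, adjusted p = 0.0296).

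Rsrc1, which encodes a splicing protein with arginine-serine repeats, had the largest interaction below 0. Its 174 nt exon was left out in 6.46, 6.70 and 5.92% of counts in R6/2 WT and in 2.35, 0.228 and 0.221% in HD mice. Q175 WT mice had 5.81, 6.62, 5.93, 6.44 and 5.95% and HOMO mice 5.04, 5.13 and 4.76%. Neither model overlapped its WT mice, and HD mouse 860 stood far above the other HD mice without reaching any WT mouse. The interaction was -3.40 ± 0.64 (adjusted p = 0.00071), from an R6/2 change of -3.72 and a Q175 change of -0.32 (adjusted p = 0.761).

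Celf4, a neuronal RNA-binding protein of the CELF family, had an 85 nt exon known only from transcripts marked for nonsense-mediated decay. Exclusion went from 93.5, 92.0 and 92.9% in R6/2 WT to 98.7, 98.6 and 98.8% in HD, and from 94.3, 94.7, 94.6, 94.5 and 94.3% in Q175 WT to 96.6, 96.0 and 96.5% in HOMO. All mutant mice were above all WT mice. The interaction was 1.93 ± 0.14 (adjusted p = 6.46e-10), although WT mice of the sets also differed, by -0.40 (adjusted p = 0.00822).

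Rbm5, a splicing regulator, had 2 events. A 74 nt exon was excluded in 3.62, 2.87 and 4.04% in R6/2 WT, 7.75, 9 and 6.92% in HD, 7.89, 5.48, 5.12, 5.15 and 3.97% in Q175 WT and 4.80, 5.74 and 5.68% in HOMO mice. R6/2 groups were apart and the Q175 groups overlapped, with changes of 1.24 and -0.00 and an interaction of 1.24 ± 0.26 (adjusted p = 0.00177). WT mice of the R6/2 set began lower (WT difference -0.66, adjusted p = 0.0182), and the highest Q175 WT mouse lay among the R6/2 HD mice. The 61 nt exon had an R6/2 change of 1.51 (adjusted p = 4.71e-04) and a Q175 change of 0.57 (adjusted p = 0.294), and its interaction of 0.94 ± 0.42 did not pass (adjusted p = 0.156; 0.0257 without R6/2 WT mouse 3).

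Among 95 events of splicing and RNA-binding factors 16 passed (16.8%, against 11.6% of all events), 14 above 0 and 2 below (159 and 38 over all events), with a median interaction of 0.13 beside 0.12 over all events. The 2 below 0 were the 105 nt exon of Hnrpdl and Rsrc1. In their own contrasts 47 of the 95 passed in R6/2 (33.4% of all events did) and 12 in Q175 HOMO (5.01% of all events).

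**Figure D2:**
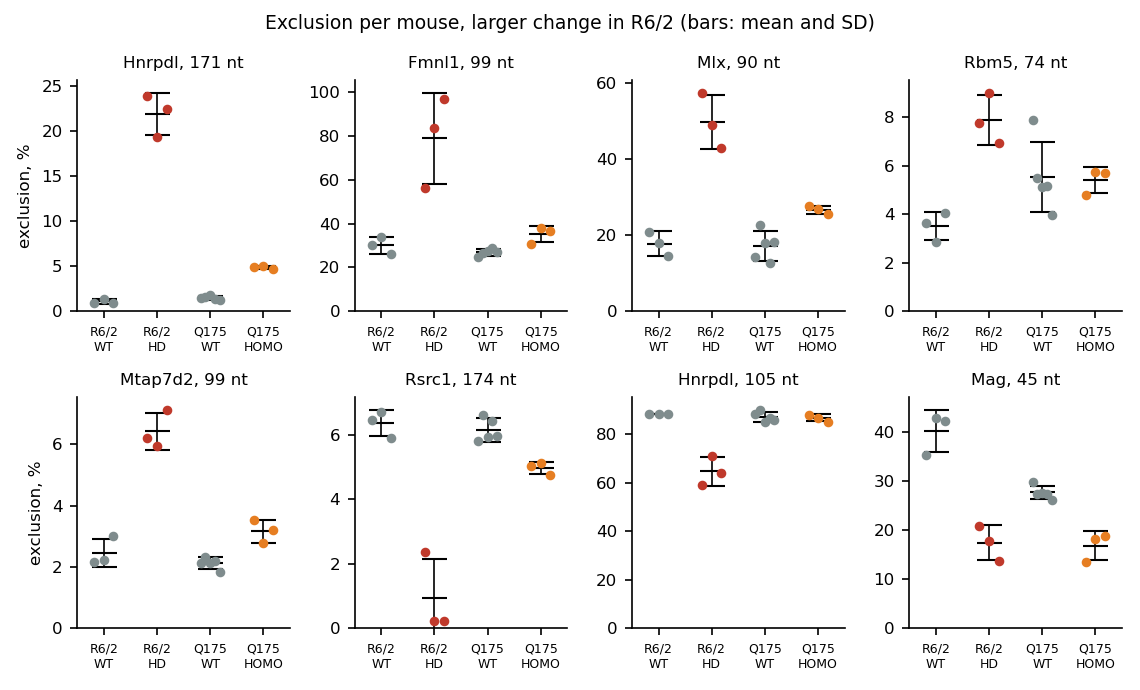
Exclusion in percent (vertical axes, from 0) per mouse for 8 exons, named by gene and length in nucleotides, with 1 dot per mouse and a bar for mean and SD of R6/2 WT (n = 3), R6/2 HD (n = 3), Q175 WT (n = 5) and Q175 HOMO (n = 3). The lower bar of Rsrc1 in HD mice is cut at 0. In all 8 the R6/2 HD mice are apart from their WT mice, and the HOMO mice overlap their WT mice for the 74 nt exon of Rbm5 and the 105 nt exon of Hnrpdl.

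Cytoskeleton and motor genes passed in 14 of 76 events (18.4%, against 11.6% of all events), all 14 above 0 (159 of 197 over all events), with a median interaction of 0.31 beside 0.12 over all events. After centring 13 lay above and 1 below 0, and with the series of mouse numbers, under or over 1000, as a term 9 passed. Fmnl1, a formin that builds actin filaments, had the largest interaction above 0. Its 99 nt exon, partly coding, was excluded in 30.1, 33.7 and 26.2% in R6/2 WT and in 56.2, 83.9 and 96.7% in HD mice. Q175 WT mice had 24.8, 26.3, 27.6, 28.7 and 26.9% and HOMO mice 30.9, 38.0 and 36.7%. All mutant mice were above their WT mice, but the HD mice were spread widely. The interaction was 3.21 ± 0.73 (adjusted p = 0.00412), and without the trend of variance on counts it missed the threshold (adjusted p = 0.0605). Without HD mouse 869 it was 2.03 (adjusted p = 4.01e-04).

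Spna2, now Sptan1, encodes alpha-II spectrin of the membrane skeleton. Its 51 nt exon went from 51, 49.4 and 49.4% exclusion in R6/2 WT to 77.7, 79.0 and 84.1% in HD, beside 48.6, 40.7, 44.2, 43.0 and 44.9% in Q175 WT and 42.7, 46.8 and 46.4% in HOMO. The Q175 groups overlapped and the R6/2 groups were far apart (interaction 1.98 ± 0.24, adjusted p = 2.91e-06). Macf1, which links microtubules to actin, rose from 91.6 ± 1.93% (SD, n = 3) to 97.8 ± 0.44% in R6/2 and measured 88.7 ± 1.00% (n = 5) and 91.6 ± 1.13% (n = 3) in the Q175 set. Its interaction was 1.5 (adjusted p = 1.81e-04), but on the percent scale it was 3.24 points and did not pass (adjusted p = 0.134). Ank2, or ankyrin-B, rose in both models, by 1.15 and 0.36, with an interaction of 0.78 (adjusted p = 0.00133).

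Mtap7d2, now Map7d2, is a microtubule-associated protein whose 99 nt exon is printed above. It was excluded in 2.18, 2.23 and 3.00% in R6/2 WT, 6.21, 5.95 and 7.11% in HD, 2.14, 2.34, 2.13, 2.21 and 1.84% in Q175 WT and 3.53, 2.78 and 3.19% in HOMO. Both mutant groups lay above their WT mice, and the R6/2 HD mice above all others. The change was 1.44 in R6/2 and 0.58 in Q175 HOMO (adjusted p = 0.0231), and the interaction 0.86 ± 0.22 (adjusted p = 0.0114; 0.0572 with the series of mouse numbers as a term).

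**Figure D3:**
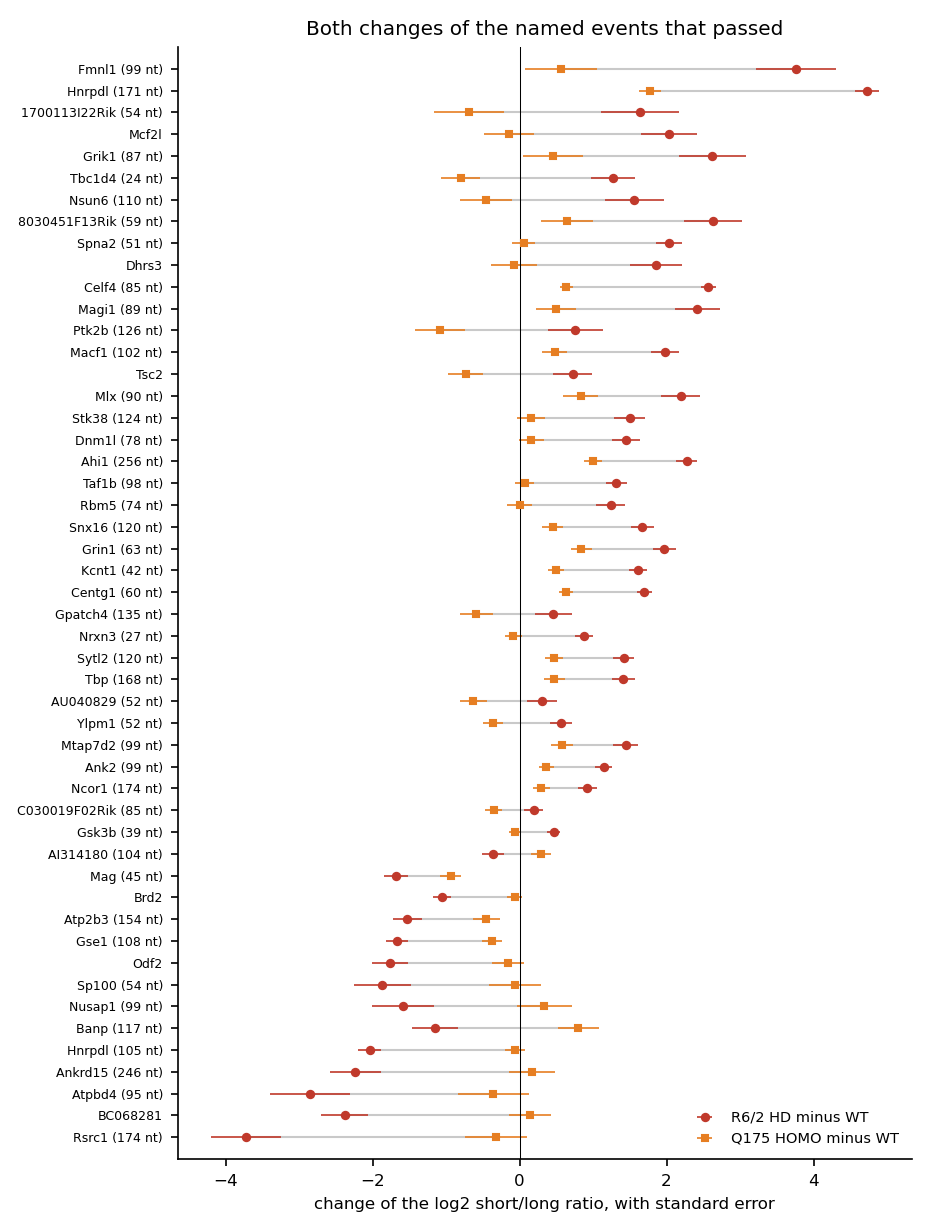
R6/2 change (red circles) and Q175 HOMO change (orange squares) of the log2 short/long ratio, with standard errors from limma, for the 50 named events that passed, ordered by interaction and labelled by gene and exon length. The horizontal axis is the change. Fmnl1 is at the top with 3.77 and 0.56, Rsrc1 at the bottom with -3.72 and -0.32, and the orange squares stay between -1.09 and 1.78.

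Ion channels, receptors and transporters passed in 8 of 52 events (15.4%, against 11.6% of all events), 7 above 0 and 1 below (159 and 38 over all events). The median interaction was 0.12, the same as over all events, and 5 passed without R6/2 WT mouse 6. Grin1 encodes the obligatory subunit of NMDA receptors, and its 63 nt exon is the N1 cassette of the extracellular domain. Exclusion was 31.9, 33.5 and 27.3% in R6/2 WT and 70.7, 59.2 and 60.2% in HD, against 32.5, 30.5, 28.3, 24.9 and 32.4% in Q175 WT and 39.7, 45.3 and 44.1% in HOMO mice. Both mutant groups were above all WT mice, and every R6/2 HD mouse was above every HOMO mouse. The changes of 1.97 and 0.84 (adjusted p = 3.93e-04 for Q175) gave an interaction of 1.13 ± 0.21 (adjusted p = 6.74e-04).

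Grik1, a kainate receptor subunit, had only 30 to 85 counts per mouse for its 87 nt exon. Exclusion was 13.1, 42.1 and 17.6% in R6/2 WT and 66.7, 65.9 and 62.2% in HD mice, and 31.9 ± 6.05% (n = 5) in Q175 WT and 39.0 ± 3.69% (n = 3) in HOMO. R6/2 WT mouse 4 lay far above the other WT mice, yet below all HD mice. The interaction of 2.17 (adjusted p = 0.0189) missed the threshold without R6/2 WT mouse 3 (1.72, adjusted p = 0.0683) or mouse 6 (1.96, adjusted p = 0.0569). 

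Kcnt1, a sodium-activated potassium channel, rose in both models (37.9 ± 2.16 to 65.0 ± 0.667% in R6/2, n = 3 each; 34.1 ± 1.71%, n = 5, to 42.1 ± 3.00%, n = 3, in Q175; interaction 1.12, adjusted p = 6.56e-05). Atp2b3, a calcium pump of the plasma membrane, was the member below 0: its 154 nt exon was excluded in 46.2, 41.2 and 48.2% in R6/2 WT and 17.9, 23.1 and 26.0% in HD, and in 48.2 ± 2.44% and 40.5 ± 4.66% in Q175 WT and HOMO mice. The exon was kept more in R6/2 HD than in any other mouse, with an interaction of -1.08 ± 0.27 (adjusted p = 0.00832).

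Adhesion, guidance and synaptic scaffold genes passed in 10 of 70 events (14.3%, against 11.6% of all events), 8 above 0 and 2 below, with a median interaction of 0.21 beside 0.12 over all events. Among those below 0 was the 90 nt exon of Nrxn3, a presynaptic adhesion protein, which was picked out after its values had been seen. This exon is the insert at splice site 4, which bears on the choice of partners across the synapse. Its exclusion was 23.7, 17.3 and 20.1% in R6/2 WT, 7.78, 8.31 and 6.26% in HD, 17.6, 13.7, 15.1, 22.9 and 21.7% in Q175 WT and 11.3, 14.5 and 12.2% in HOMO. The exon was again kept most in R6/2 HD mice, and the interaction was -1.07 ± 0.28 (adjusted p = 0.0114). A 27 nt exon of Nrxn3 moved the other way in R6/2, from 81.5, 80.0 and 78.5% to 86.0, 89.5 and 88.4% exclusion. In the Q175 set it measured 79.2, 81.7, 81.3, 78.2 and 78.5% in WT and 78.0, 79.4 and 79.2% in HOMO mice, and the groups overlapped (interaction 0.96 ± 0.17, adjusted p = 3.70e-04). Magi1, a junctional scaffold, rose from 41.0 ± 5.75 to 79.2 ± 2.03% in R6/2 and measured 44.4 ± 6.16 and 52.9 ± 2.39% in Q175, at 43 to 131 counts per mouse (interaction 1.93, adjusted p = 0.00246).

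Myelin and oligodendrocyte genes were measured in only 3 events, and Mag passed. Mag encodes a myelin adhesion protein, and keeping its 45 nt exon, which holds a stop codon, yields the small form. The exon was excluded in 35.2, 42.9 and 42.2% in R6/2 WT, 20.8, 17.8 and 13.7% in HD, 29.9, 27.4, 27.6, 27.4 and 26.1% in Q175 WT and 13.5, 18.2 and 18.8% in HOMO. Exclusion fell in both models to the same range, from WT levels that differed (0.80 on the log2 scale, adjusted p = 0.00102). The changes were -1.68 and -0.93 (adjusted p = 1.57e-04) and the interaction -0.75 ± 0.21 (adjusted p = 0.0205). It missed the threshold without R6/2 WT mouse 4 (-0.66, adjusted p = 0.0631) or 6 (-0.68, 0.0633), R6/2 HD mouse 869 (-0.55, 0.0711), HOMO mouse 2 (-0.67, 0.0672) or HOMO mouse 3 (-0.64, 0.0678), or without the variance trend (adjusted p = 0.112).

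Transcription and chromatin genes passed in 13 of 101 events (12.9%, against 11.6% of all events), 9 above 0 and 4 below (Gse1, Brd2 and, named after their values were seen, Zfp788 and Mef2a). The median interaction was 0.10, beside 0.12 over all events, and 8 passed with the series term. Mlx, a partner of sugar-sensing transcription factors, has its 90 nt exon printed above. Exclusion was 20.9, 17.9 and 14.5% in R6/2 WT, 57.4, 48.9 and 43.0% in HD, 14.3, 22.6, 17.8, 12.6 and 18.3% in Q175 WT and 27.6, 26.8 and 25.6% in HOMO. Both mutant groups were above their WT mice, R6/2 by 2.19 and Q175 by 0.84 (adjusted p = 0.0407). The interaction was 1.35 ± 0.36 (adjusted p = 0.0124; 1.18 and 0.0744 with the series of mouse numbers as a term), and the summed counts also rose more in R6/2 (interaction 0.86, adjusted p = 0.00161).

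Taf1b, a subunit of the RNA polymerase I selectivity factor, passed in R6/2 and not in Q175 (adjusted p = 0.843), with exclusion of 40.8, 39.2 and 40.0% in WT, 64.6, 66.5 and 56.0% in HD, and 39.7 ± 2.42 and 40.8 ± 0.248% in the Q175 set. Its summed counts also rose more in R6/2 (interaction 0.93, adjusted p = 5.04e-05), beside a ratio interaction of 1.25 (adjusted p = 1.15e-04). Gse1 had a 108 nt exon left out in 86.5, 84.2 and 86.7% in R6/2 WT and in 62.6, 64.8 and 69.2% in HD, with 84.9 ± 2.36% in Q175 WT and 81.4 ± 1.47% in HOMO. It was kept more in all R6/2 HD mice (interaction -1.29 ± 0.20, adjusted p = 1.10e-04). Brd2, a bromodomain protein, had an alternative 3′ splice site with changes of -1.05 and -0.07 and an interaction of -0.99 (adjusted p = 1.35e-04).

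The huntingtin-linked list held only 10 events, of which 3 passed (30%, against 11.6% of all events), all above 0 (159 of 197 over all events). Its median interaction was 0.45, beside 0.12 over all events. Ahi1 encodes a cilium protein that binds a partner of huntingtin. Its 256 nt exon, annotated only in transcripts subject to nonsense-mediated decay, was excluded in 31.7, 35.4 and 29.1% in R6/2 WT, 69.5, 70.1 and 68.8% in HD, 27.2, 26.0, 30.5, 25.9 and 25.8% in Q175 WT and 45.8, 38.2 and 43.6% in HOMO. The order was WT below HOMO below R6/2 HD, with no overlap between a mutant group and its WT mice. The changes were 2.27 and 1.00 (adjusted p = 1.14e-05), the interaction 1.28 ± 0.18 (adjusted p = 4.44e-05), and the summed counts had an interaction of 0.45 (adjusted p = 0.0246).

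Tbp, the TATA-binding protein, had a 168 nt exon at 5.08 ± 0.541 and 12.5 ± 0.63% in R6/2 and 5.94 ± 0.725 and 8.05 ± 0.962% in Q175, with an interaction of 0.94 (adjusted p = 0.00454; 0.71 and 0.0878 with all 10 knock-in WT mice). Ncor1, a corepressor, had changes of 0.92 and 0.30 and an interaction of 0.62 (adjusted p = 0.016), lost without HOMO mouse 3 (0.51, adjusted p = 0.0619), after centring (adjusted p = 0.0538), without the variance trend (0.0605) and with the series term (0.059). 

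Endocytosis and vesicle traffic genes passed in 6 of 61 events (9.84%, below the 11.6% of all events), 5 above 0 and 1 below (Sh3pxd2a, named after its values were seen), with a median interaction of 0.04 that was -0.05 after centring. Dnm1l, the fission factor of mitochondria and peroxisomes, rose from 1.79 ± 0.523 to 4.65 ± 0.207% in R6/2 and measured 2.45 ± 0.376 and 2.74 ± 0.579% in Q175 (interaction 1.29, adjusted p = 9.89e-04). Snx16, a sorting nexin of endosomes, went from 12.8 ± 2.79 to 31.6 ± 1.26% and from 13.5 ± 1.16 to 17.6 ± 0.568% (interaction 1.22, adjusted p = 3.36e-04). Sytl2, a Rab27 effector, rose by 1.42 and 0.46, with an interaction of 0.95 (adjusted p = 0.00109).

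Kinases and phosphatases passed in 5 of 77 events (6.49%, below the 11.6% of all events), all above 0 (159 of 197 over all events), with a median of 0.11, and in 3 without HOMO mouse 2 or with the series term. Stk38, a kinase of the NDR family, rose by 1.5 in R6/2 and differed by 0.16 in Q175 (interaction 1.34, adjusted p = 0.0024). Gsk3b, glycogen synthase kinase 3 beta, had a 39 nt exon at 39.1 ± 1.74 and 46.9 ± 1.44% in R6/2 and at 39.8 ± 1.47 and 38.7 ± 1.18% in Q175 (interaction 0.53, adjusted p = 0.00454; 0.0554 without the variance trend). Small GTPases and their regulators passed in 7 of 60 events (11.7%, about the 11.6% of all events), 6 above 0 and 1 below (Ddef1, named after its values were seen), with a median of 0.08 that was -0.01 after centring, and in 4 without R6/2 WT mouse 4 or without the variance trend. Centg1, now Agap2, a GTPase-activating protein, rose in both models by 1.70 and 0.63 (interaction 1.07, adjusted p = 9.52e-06). Mcf2l, an exchange factor for small GTPases, rose from 5, 2.13 and 1.72% to 13, 10.8 and 8.58% in R6/2 and measured 7.73 ± 2.15 and 6.94 ± 1.36% in Q175. Its short junction had few reads, at 160 to 428 counts per mouse for both junctions together. The WT mice of the 2 sets differed for Mcf2l by -1.48 (adjusted p = 0.00807), and its interaction was 2.17 (adjusted p = 0.00553).

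**Figure D4:**
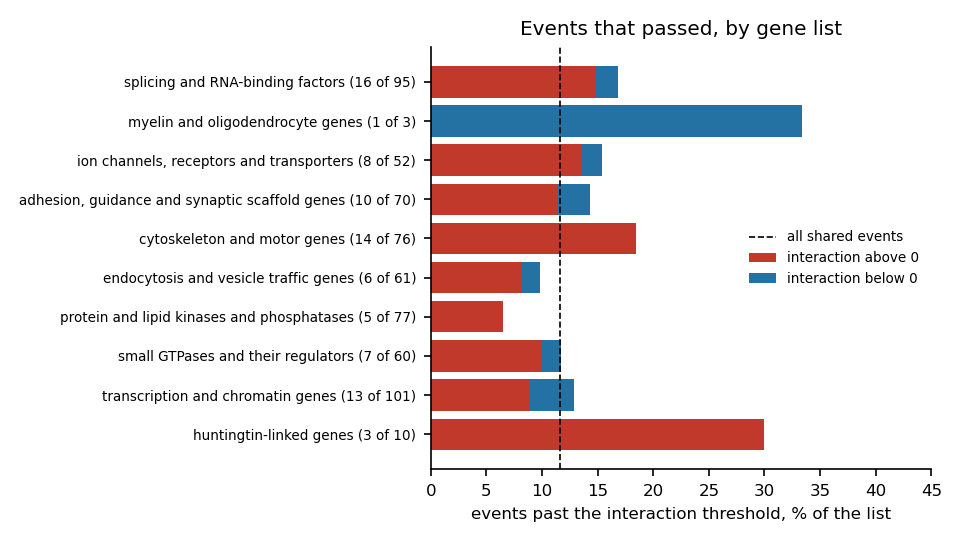
Share of the events of each of 10 gene lists that passed the interaction test, in percent of the list (horizontal axis), with events above 0 in red and below 0 in blue and the counts in the labels. The dashed line marks the 11.6% of all shared events; cytoskeleton genes reach 18.4% and kinases 6.49%, and the longest bars are lists of 3 and 10 events.

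Of the remaining events with the largest interactions above 0, Nsun6, an RNA methyltransferase, rose from 4.86 ± 1.83 to 12.9 ± 1.45% in R6/2 and measured 7.42 ± 2.6 and 5.31 ± 1.80% in Q175 (interaction 2.02, adjusted p = 0.0135). Dhrs3, a retinal reductase, went from 0.823 ± 0.314 to 2.90 ± 0.704% and measured 1.11 ± 0.0949 and 1.10 ± 0.472% in Q175 (interaction 1.94, adjusted p = 0.00685). The short junctions of Nsun6 and Dhrs3 had few reads in R6/2 WT mice, at 147 to 330 and 1050 to 2233 counts per mouse for both junctions together. The event listed as 8030451F13Rik, now Mybpc1, rose from 76.8 ± 1.69 to 95.3 ± 1.86% in R6/2. In the Q175 set WT mouse 8, at 46.8%, stood apart from the other WT mice at 78.0 to 82.4%, and HOMO mice had 81.2 to 82.7%. Its interaction of 1.98 (adjusted p = 0.0142) was lost on the percent scale (9.50 points, adjusted p = 0.605) and without the variance trend (adjusted p = 0.0767). The event of 1700113I22Rik, now Ptges3l, had 23 to 52 counts per mouse, groups that overlapped in both models and an interaction of 2.33 (adjusted p = 0.0305) that was lost in 8 of 14 fits that each left out 1 mouse, on the percent scale (adjusted p = 0.0538) and with the series term (0.0763).

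Among the largest below 0, BC068281 went from 57.7, 58.3 and 62% in R6/2 WT to 12.7, 17.4 and 41.8% in HD mice and measured 65.2 ± 2.63 and 67.4 ± 3.77% in Q175. HD mouse 869 was far above the other HD mice and still below all WT mice (interaction -2.52 ± 0.43, adjusted p = 2.24e-04). Atpbd4, now Dph6, an enzyme of diphthamide synthesis, went from 34.9, 29.0 and 30.2% to 13.8, 12.6 and 1.00% and measured 39.3 ± 3.51 and 33.6 ± 2.21% in Q175. Here HD mouse 869 was far below the others. Its interaction of -2.50 (adjusted p = 0.0239) was lost without R6/2 WT mouse 3 (-2.39, adjusted p = 0.0575) or HOMO mouse 1 (-2.42, adjusted p = 0.058), without the variance trend (adjusted p = 0.128) and with the series of mouse numbers as a term (adjusted p = 0.0841). Without HD mouse 869 it was -1.23 (adjusted p = 0.00127).

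Ankrd15, now Kank1, a regulator of actin and adhesion, went from 46.6, 41.5 and 25.4% to 7.51, 16.6 and 10.6% in R6/2 and measured 26.8 ± 3.78 and 29.2 ± 3.78% in Q175 (interaction -2.41, adjusted p = 0.00102). Odf2, a centriole protein, went from 18.6, 18.7 and 18.1% to 6.86, 3.99 and 8.54% and measured 18.1 ± 2.70 and 16.5 ± 2.63% (interaction -1.60, adjusted p = 0.00152). In both genes all R6/2 HD mice were below all WT mice and the Q175 groups overlapped. Sp100, a nuclear body protein, measured 83.8 ± 1.42 and 58.1 ± 13.1% in R6/2 and 70.5 ± 8.25 and 68.8 ± 13.8% in Q175. Its interaction of -1.81 (adjusted p = 0.0233) was lost without R6/2 WT mouse 6 (-1.72, adjusted p = 0.0605), HD mouse 868 (-1.54, 0.0622) or HOMO mouse 1 (-1.24, 0.0966), on the percent scale (adjusted p = 0.168), without the variance trend (0.115), with all 10 knock-in WT mice (-1.31, 0.242) and with the series term (0.11). Nusap1, a spindle protein with 34 to 65 counts per mouse, had an interaction of -1.92 (adjusted p = 0.0248), lost without R6/2 WT mouse 3 (-1.81, 0.0572), HD mouse 868 (-1.70, 0.0751) or 869 (-1.74, 0.0667), HOMO mouse 1 (-1.76, 0.0684), or with the series term (adjusted p = 0.0522).

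The Q175 change was the larger in 5 of the 197 events, Ptk2b, Tsc2, Gpatch4, AU040829 and C030019F02Rik, and in all 5 exclusion was lower in HOMO than in WT mice. Ptk2b, the focal adhesion kinase PYK2, had its 126 nt exon excluded in 7.06, 11.8 and 10.4% in R6/2 WT, 19.4, 20.2 and 9.35% in HD, 23.5, 30.1, 31.1, 24.5 and 20% in Q175 WT and 12.1, 14.6 and 14.8% in HOMO. All HOMO mice were below all their WT mice, whereas the R6/2 groups overlapped, at 51 to 173 counts per mouse. Neither change passed alone (R6/2 0.76, adjusted p = 0.129; Q175 -1.09, adjusted p = 0.0628), and the interaction was 1.85 ± 0.51 (adjusted p = 0.0164). The WT mice of the sets differed by -1.64 (adjusted p = 0.00392). The interaction was lost without HD mouse 868 (1.62, adjusted p = 0.0553) with all 10 knock-in WT mice (1.31, adjusted p = 0.185) and with the series of mouse numbers as a term (1.58, adjusted p = 0.0914).

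Tsc2, the tuberin subunit that holds back mTOR signalling, was excluded in 86.2, 82.6 and 81.4% in R6/2 WT, 88.0, 88.8 and 91.0% in HD, 91.9, 91.5, 90.2, 93.5 and 91.0% in Q175 WT and 84.6, 87.3 and 88.4% in HOMO. The groups did not overlap in either set and moved in opposite directions (R6/2 0.72, adjusted p = 0.0366; Q175 -0.73, adjusted p = 0.0777). The interaction of 1.46 ± 0.36 (adjusted p = 0.00733) held in every fit that left out 1 mouse, and the WT mice of the sets differed by -1.12 (adjusted p = 0.00489).

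AU040829, now Arhgap44, a GTPase-activating protein, was the single event of the 197 in which the Q175 change passed and the R6/2 change did not (-0.63, adjusted p = 0.049). Exclusion was 79.2, 76.1 and 73.1% in R6/2 WT, 70.8, 84.9 and 82.1% in HD, 81.9, 81.3, 80.2, 81.4 and 79.2% in Q175 WT and 67.0, 76.8 and 75.0% in HOMO. HOMO mice were below their WT mice, while HD mouse 860 lay below and the other HD mice above all R6/2 WT mice. The interaction of 0.93 (adjusted p = 0.0268) was lost without R6/2 WT mouse 4 or 6, HD mouse 868 or 869 or HOMO mouse 1, at 0.68 to 0.93 and adjusted p of 0.0506 to 0.103. It was also lost on the percent scale (adjusted p = 0.155), without the variance trend (0.129), with all 10 knock-in WT mice (0.67, adjusted p = 0.194) and with the series of mouse numbers as a term (adjusted p = 0.0938). The interactions of Gpatch4 (1.05, adjusted p = 0.0443) and C030019F02Rik, now Nkain4 (0.55, adjusted p = 0.0443), were each lost in 10 of the 14 fits that left out 1 mouse, and under 5 and 7 of the 12 other alternatives.

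Opposite changes, each past an unadjusted p of 0.05, were found for Tsc2, Tbc1d4, Ylpm1, Banp and AI314180. Tbc1d4, a Rab GTPase-activating protein of insulin-regulated glucose transport, has the 24 nt exon printed above. Exclusion was 57.1, 43.7 and 48.0% in R6/2 WT, 78.8, 64.1 and 67.5% in HD, 59.9, 63.5, 72.5, 71.5 and 67.2% in Q175 WT and 56.9, 57.0 and 47.8% in HOMO. R6/2 HD mice were all above and HOMO mice all below their WT mice, and WT mice of the R6/2 set began lower (-1.05, adjusted p = 0.0156). The changes were 1.27 (adjusted p = 0.00144) and -0.80 (adjusted p = 0.0861), and the interaction 2.07 ± 0.40 (adjusted p = 8.72e-04).

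Banp, a nuclear matrix protein that binds DNA, had its 117 nt exon excluded in 17.2, 16.2 and 19.8% in R6/2 WT, 9.95, 8.61 and 7.84% in HD, 7.92, 6.74, 9.26, 6.35 and 6.19% in Q175 WT and 10.9, 8.89 and 17.7% in HOMO. The R6/2 groups were apart, HOMO mouse 2 overlapped the Q175 WT mice, and R6/2 HD mice were near the level of Q175 WT mice (WT difference 1.45, adjusted p = 0.0023). The interaction was -1.96 ± 0.42 (adjusted p = 0.0024). Ylpm1 measured 2.91 ± 0.0667 and 4.26 ± 0.0965% in R6/2 and 4.13 ± 0.753 and 3.22 ± 0.41% in Q175 (interaction 0.93, adjusted p = 0.00298; 0.70 and 0.0698 with all 10 knock-in WT mice), again with a WT difference (-0.50, adjusted p = 0.024). AI314180, now Ecpas, a proteasome adaptor, had an interaction of -0.65 (adjusted p = 0.0419) that was lost in 12 of the 14 fits that left out 1 mouse and under 5 of the 12 other alternatives.

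**Figure D5:**
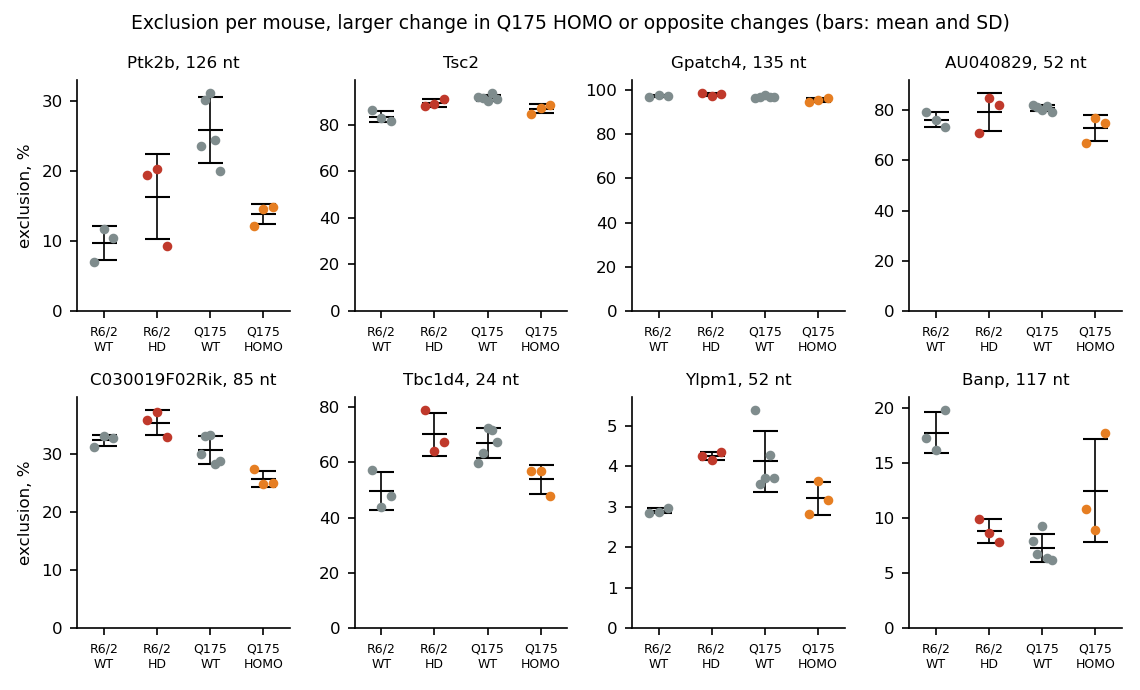
Exclusion in percent (vertical axes, from 0) per mouse for the 5 events with the larger change in Q175 HOMO (Ptk2b, Tsc2, Gpatch4, AU040829 and C030019F02Rik) and for Tbc1d4, Ylpm1 and Banp, with 1 dot per mouse and a bar for mean and SD (R6/2 WT, R6/2 HD and Q175 HOMO n = 3, Q175 WT n = 5). For Ptk2b, Tsc2, Tbc1d4, Ylpm1 and Banp the WT mice of the sets begin at different levels.

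Starting levels and summed counts bear on how these differences are read. WT mice of the R6/2 and Q175 sets differed in 134 of all events (7.9%), with 66 higher (3.89%) and 68 lower (4.01%) in the R6/2 set, and in 32 of the 197. The same WT mice enter the interaction with the opposite signs, so the 32 is not independent of how the 197 were chosen. The count of 134 over all events was 54 without R6/2 WT mouse 3, 84 without mouse 4 and 82 without Q175 WT mouse 8. The summed short and long counts of an event, scaled to the mouse's total over the shared events, had an interaction in 267 events (15.7%), 151 of them above 0 (8.9%) and 116 below (6.84%), and in 54 of the 197. In 24 of these 54 both the ratio and the summed counts had an interaction above 0. Among events named here the summed counts also differed for Grik1 (-0.89, adjusted p = 0.0137), Dhrs3 (-0.52, adjusted p = 0.00719), Gse1 (-0.49, adjusted p = 0.0131), Sytl2 (-0.42, adjusted p = 0.0151), C030019F02Rik (-0.49, adjusted p = 0.0141) and AI314180 (0.43, adjusted p = 0.0062). Scaled to the median log2 ratio instead, 238 events passed and 74 of them lay above 0 and 164 below.

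What the 197 shared beyond their choice was limited. By type 189 of 1632 cassette exons passed, 155 of them above 0, with 4 of 20 alternative 5′ sites, 2 of 31 alternative 3′ sites and 2 of 13 pairs of mutually exclusive exons. Beside these stand 197 of all 1696 events (11.6%), 159 of them above 0. In R6/2 WT mice median exclusion was 32% for events above 0, 49.7% for those below 0 and 42% for all events. The R6/2 WT level enters the interaction with a minus sign, so these medians are not independent of the choice of events. Of exons placed on the annotation, the 133 above 0 had a median length of 76 nt and the 25 below 0 of 108 nt, against 89 nt for all 1331. Exons of up to 51 nt made up 36 of the 133 (27.1%) and 2 of the 25 (8%), against 22.8% of all, and lengths in multiples of 3 made up 71.4%, 68% and 67.1%. Coding exons were 74.4%, 72% and 74.8%, and exons known only from transcripts with nonsense-mediated decay 5.26%, 8% and 5.71%. The motif TGTGTG, on the strand of the gene within 250 bases of intron on either side, was present for 29.3%, 24% and 35.7%; on the other strand it was present for 15%, 12% and 16.2%. These shares are descriptions of the letters found, without a test.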

How the data were processed

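The deposited values (unit recorded as other) are, per the file headers, a short and a long count per event, whole numbers that the authors had not normalized. Commas inside large values were removed. They kept the columns from being accepted as plain counts, so edgeR and DESeq2 were not run. A quasi-binomial fit of the short and long values was an alternative. The aligner is not given in the sources used here. The submitters' processing notes name the genome build mm10, but of 1652 events with a symbol in the RefSeq table of GRCm38 only 231 lay inside the bounds of their gene, so positions in the files were not used. Instead, the length of the skipped interval was compared with annotated introns of the same gene in GENCODE M21 (1567 of 1640 events had one of equal length, against 8 to 12 at lengths off by 1 to 5 bases), and 1330 of the 1331 exons so placed had the usual AG and GT or GC borders. Older symbols (232 events) were matched through RefSeq synonyms, and 44 events had no match.

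Groups came from the labels. The titles of all knock-in mice say Q150, so the line was taken from the glutamine numbers in the genotype field, and the WT mice, which the labels hold as 1 group, were divided by file set, those whose files list the events of the Q175 mice serving here. The log2 ratio (short + 0.5)/(long + 0.5) was fitted by limma (3.58.1, run in R 4.3.3), 1 mean for each group of the 14 mice, with a variance trend on the counts and Benjamini-Hochberg adjustment over all 1696 events. Standard errors and adjusted p-values come from this fit. Exclusion is 100 x short/(short + long) and is given as mean ± SD. Events needed a mean of 10 counts, which removed none. With the added 0.5, changes of junctions at low counts are understated. PCR copies were counted as reads. Identical counts under 2 event numbers occurred for 18 events, 2 of them among the 197.

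Members, gene lists and the rule for named events were chosen with earlier results of these data known. The rule named all events of Mtap7d2, Mag, Mlx, Hnrpdl and Rbm5, the 10 largest interactions in each direction with the larger change in R6/2, up to 8 with the larger change in Q175, up to 5 with opposite changes and up to 3 per gene list. On simulated counts for the 1696 events with 200 changed by 1 log2 unit, the interaction test recovered 52% and 2.8% of its calls were false. An event that the rule names is not reported here. Figures were drawn with matplotlib 3.10.9.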

Additional observations from a re-analysis of the deposited data

Results flagged for a closer look

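The test of the difference between the models picked out 197 events. Of the named ones, RNA-binding factors had interactions of 2.95 (Hnrpdl, 171 nt), 1.93 (Celf4), 1.24 (Rbm5, 74 nt), -1.98 (Hnrpdl, 105 nt) and -3.40 (Rsrc1). Those of cytoskeleton genes were 3.21 for Fmnl1, 1.98 for Spna2, 1.5 for Macf1, 0.86 for Mtap7d2 and 0.78 for Ank2. Channels and receptors had 2.17 (Grik1), 1.13 (Grin1), 1.12 (Kcnt1) and -1.08 (Atp2b3), and adhesion genes 1.93 (Magi1) and 0.96 (Nrxn3, 27 nt), beside -1.07 for the 90 nt exon of Nrxn3, which was picked out after its values were seen. Regulators of small GTPases had 2.17 (Mcf2l), 2.07 (Tbc1d4), 1.46 (Tsc2), 1.07 (Centg1) and 0.93 (AU040829), kinases 1.85 (Ptk2b), 1.34 (Stk38) and 0.53 (Gsk3b), and vesicle genes 1.29 (Dnm1l), 1.22 (Snx16) and 0.95 (Sytl2). Transcription genes had 1.35 (Mlx), 1.25 (Taf1b), -0.99 (Brd2) and -1.29 (Gse1), huntingtin-linked genes 1.28 (Ahi1), 0.94 (Tbp) and 0.62 (Ncor1), and the myelin gene Mag -0.75. The others were 2.33 for 1700113I22Rik, 2.02 for Nsun6, 1.98 for 8030451F13Rik, 1.94 for Dhrs3, 1.05 for Gpatch4, 0.93 for Ylpm1, 0.55 for C030019F02Rik, -0.65 for AI314180, -1.60 for Odf2, -1.81 for Sp100, -1.92 for Nusap1, -1.96 for Banp, -2.41 for Ankrd15, -2.50 for Atpbd4 and -2.52 for BC068281.

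Among the Q175 WT mice, the only group of 4 or more, mouse 8 stood apart in mean exclusion, with a gap to the nearest mouse of 0.844 of the range of the group, and it did so for exclusion of 8030451F13Rik (0.878, at 46.8%) and Snx16 (0.827, at 15.5%). Of 52 sets of values looked at, 3 were so marked, and chance marks about 1 in 20.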

How the results depend on the processing

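No paired analysis was possible because the groups compared share fewer than 2 replicate numbers. The interaction passed in 138 to 220 events under the alternatives (138 with the series of mouse numbers, under or over 1000, as a term, 152 without the variance trend, 192 in a quasi-binomial fit, 196 with second listings of identical counts dropped, an alternative chosen after seeing the data), and in 162 to 201 with 1 mouse left out. The Q175 HOMO change passed in 85 events, in 55 after centring, 46 without the variance trend, 43 with the series as a term, 136 in a fit of the Q175 set alone, and 31 to 98 with 1 mouse left out. WT levels differed in 134 events, in 83 on the percent scale, 59 without the variance trend, 51 with all 10 knock-in WT mice, and 54 to 141 with 1 mouse left out. The change of mean exclusion in Q175 HOMO was 0.439 points as a share of summed counts (exact permutation p = 0.214), 0.788 with only WT mice numbered over 1000 (exact permutation p = 0.1, the smallest that 2 against 3 mice allow), and 0.557 to 0.756 with 1 mouse left out. By list, cytoskeleton genes passed in 9 events, kinases in 3 and transcription genes in 8 with the series as a term, and small GTPases in 4 and myelin genes in 0 without the variance trend. With 1 mouse left out the counts were 5 to 9 for ion channels, 0 to 1 for myelin genes, 3 to 6 for kinases and 4 to 7 for small GTPases. The cause of these shifts was not tested. No event named by the rule turned its direction under the alternatives run, but balances and list medians did: event totals went from 151 above and 116 below 0 to 74 and 164 when scaled to the median log2 ratio, and the balance of WT levels from 66 and 68 to 43 and 53 once the series was fitted, as the median over all events moved from 0.01 to -0.01. The median interaction of endocytosis genes went from 0.04 to -0.05 after centring, -0.02 with the series as a term, -0.02 without R6/2 WT mouse 3, -0.00 without Q175 WT mouse 9 and -0.03 without HOMO mouse 1. That of small GTPases went from 0.08 to -0.01 after centring, and that of myelin genes from -0.15 to 0.03 with all 10 knock-in WT mice. Of the 50 named events that passed, 38 did so in all 14 fits that left out 1 mouse, 31 under all other alternatives run and 30 in both. Events with few counts limit precision: Ptges3l, Grik1 and Nusap1 had under 100 counts per mouse. The ratio also rests on few reads where 1 junction is scarce. In R6/2 WT mice the short share was 1.72 to 5% for Mcf2l (160 to 428 counts per mouse over all 14 mice), 2.80 to 6.32% for Nsun6 (147 to 330) and 0.460 to 1.01% for Dhrs3 (1050 to 2233).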
